A study of Homo sapiens with 9 samples.

Results

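OACP4_C is an established human cell line of oesophageal adenocarcinoma, for which the labels give adenocarcinoma of the gastric cardia as the source. Its 1 sequencing library, 1 of 9 in all, was set against the libraries of ESO-26, ESO-51, FLO-1, JH_EsoAd1, OAC_5.1_C, OE19, OE33 and SK-GT-4, gene by gene. The labels name no treatment: all 9 lines were grown to 80% confluency and their total RNA was sequenced. Every gene of the count table was read in OACP4_C as a difference from the median of the other 8 libraries and as a gap to the nearest of them. Each line has 1 column of counts, so the comparison describes libraries, has no replicate check and carries no test.

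Adenocarcinoma of the lower oesophagus and gastric cardia is a columnar epithelial cancer. It often depends on receptor tyrosine kinases such as ERBB2, EGFR and MET, which signal through the RAS and MAPK cascade to the cell cycle. Tumour cells also show themselves to T cells through MHC class I molecules, whose genes are switched on together with interferon-stimulated genes.

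OACP4_C contributed 57995387 counts in 52158 named genes, and the other libraries 16801179 to 69881539. Levels are given in CPM, counts in a library brought to 1000000, after scaling by trimmed mean of M values, and differences are on the log2(CPM + 1) scale. In OACP4_C 14261 genes reached 1 CPM, and a count of 3, used as the floor for a gene without counts, was worth 0.0518 CPM. Mitochondrial genes held 1.64% of its counts, against 1.48% to 24.7% in the others. OE19 is widely known for an amplified ERBB2 gene, but the library labelled OE19 held 185 CPM of ERBB2 and the library labelled SK-GT-4 held 18325 CPM, so names are used as labels only. The general epithelial markers EPCAM, CDH1 and KRT19 were expressed in OACP4_C, while HNF4A and VIL1, 2 genes of columnar and intestinal cells, were nearly absent. Columnar transcription factors as a list lay near the median of the others, as given below. Intervals and floors given here cover counting error only.

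OACP4_C was the library with the fewest genes far above all others. Of 19719 genes at 1 CPM or more in at least 1 library, 37 (0.188%) lay at least 2 log2 units above the highest of the other 8 and reached 5 CPM, against 71 to 181 genes in each other library read the same way. Lower genes, at least 2 units below the lowest of the other 8 with that lowest at 5 CPM or more, numbered 16 (0.0811%), within the 10 to 175 of the other libraries. Without the libraries labelled OE19 and SK-GT-4 the counts were 63 and 29, and without OAC_5.1_C 62 genes were higher. At least 4-fold from the median of the others were 583 genes above (2.96%) and 280 below (1.42%), each with a minimum of 5 CPM on the higher side. Just inside the rule stood RPE65 and MUC20, both with a gap of 2.03, and ITM2C with -2.13. Just outside it stood SLFN5 with 1.95 and NXN with -1.94.

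The 26 protein-coding genes called higher include several for surface and secreted proteins of epithelial cells. MMP7, the matrix metalloproteinase matrilysin on chromosome 11, was at 405 CPM in OACP4_C (95% interval 399.9 to 410.2). In the other 8 libraries it ranged from 0.0577 CPM to 40.7 CPM in OAC_5.1_C, with a median of 0.584 CPM, so the closest library was 9.95-fold lower. IL1RL1 on chromosome 2, the receptor of interleukin 33, stood at 113 CPM, against 9.27 CPM in JH_EsoAd1, 5.77 CPM in OE19 and at most 0.115 CPM in the remaining 6. No other library came within 10-fold of OACP4_C for that receptor. Its ligand gene IL33 was close to absent in OACP4_C, at 0.0863 CPM, and peaked in FLO-1 at 80.5 CPM.

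MUC4, a large membrane-bound mucin on chromosome 3, reached 387 CPM, against a lowest value of 0.0577 CPM, a median of 3.15 CPM and a highest value of 67.95 CPM in FLO-1. MUC20, its neighbour gene for a shorter membrane mucin, reached 178 CPM and was next highest in ESO-51 at 42.97 CPM. The pair thus stood above all other libraries together, as did the metalloreductase genes STEAP1 and STEAP2 on chromosome 7. STEAP2 was at 662 CPM, the others spanning 0.0643 to 81.4 CPM around a median of 13.96 CPM. STEAP1 was at 225 CPM, the others spanning 0.133 to 38.9 CPM around 6.18 CPM. STEAP1B (22.3 CPM) also passed, but it is nearly identical to STEAP1 over part of its length, so reads may be shared between them.

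KRT15, a keratin of basal cells and of some glandular progenitors, was at 356 CPM. The other 8 libraries held 3.36 to 74.1 CPM of it, with a median of 10.1 CPM and JH_EsoAd1 as the closest. PLAAT4, a retinoid-induced phospholipase and acyltransferase, reached 515 CPM (others 2.03 to 60.8 CPM, median 9.55 CPM). Both genes were present in every library, and OACP4_C exceeded the closest one by 4.81-fold for KRT15 and 8.47-fold for PLAAT4. B3GALT5, a galactosyltransferase that builds type 1 chains such as those of the CA19-9 antigen, was at 189 CPM, with 42.1 CPM in JH_EsoAd1 next. PADI1, which converts arginine to citrulline, was at 164 CPM, with 30.6 CPM in JH_EsoAd1 next.

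Several called genes are better known from other tissues. UGT2B7, a liver enzyme that glucuronidates steroids and drugs, stood at 23.4 CPM and did not exceed 0.579 CPM elsewhere. Its paralogues are close in sequence, so its reads are uncertain in their assignment. ABCB11, the bile salt export pump of hepatocytes, was at 18.5 CPM, against 0 to 1.28 CPM. Among 13 measured genes of bile acid handling it was the single one called, and the list's median difference was 0.00. DDX43, a cancer-testis RNA helicase, was at 21.7 CPM and at most 0.520 CPM in the others. Of 15 measured cancer-testis genes, PRAME alone was also over 2-fold above the median, at 1.71 CPM against 326 CPM in OE33. TEX15 had no counts in OACP4_C or ESO-51 and reached 63.1 CPM in OE33.

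CD22, a sialic acid-binding inhibitory lectin of B cells on chromosome 19, was at 41.7 CPM in OACP4_C, at 3.35 CPM in OAC_5.1_C and at most 1.38 CPM in the remaining 7. Of 12 B cell markers 5 reached 1 CPM in any library, and CD22 was the only one over 2-fold above the median. CD79A stood at 0.949 CPM in OACP4_C, and the leukocyte marker PTPRC had 1 count. Summed over the B cell markers, the level was 43.4 CPM in OACP4_C and 1.04 to 11.3 CPM in the others. CD22 alone gave 41.7 CPM of that sum in OACP4_C, so the sum mostly repeats CD22. Over 12 other haematopoietic markers the sum was 6.90 CPM in OACP4_C and 3.73 to 27.2 CPM in the others. In RNA of a whole culture, few cells rich in an RNA and many cells poor in it cannot be told apart. HLA-DPB1, a class II molecule of antigen-presenting cells, passed narrowly at 5.95 CPM, with OE33 next at 0.641 CPM, and CD74, the class II invariant chain, was also highest in OACP4_C (22.3 CPM, next 8.44 CPM in OAC_5.1_C). HLA-DRA, by contrast, was at 0.380 CPM.

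Signalling genes among those called included DUSP5, a nuclear phosphatase of ERK that ERK signalling itself induces, at 184 CPM (others 0.0222 to 23.5 CPM, median 3.79 CPM). PLCB2, a phospholipase C of haematopoietic cells, was at 23.2 CPM with 3.56 CPM next. KLHL11, a cullin-3 adaptor gene on chromosome 17, was expressed in all other libraries within 14.3 to 42.4 CPM and stood at 280.1 CPM here. ANGPT2, a ligand of the endothelial receptor TIE2, reached 14.4 CPM, with 2.06 CPM next. NWD2 (6.31 CPM) and the gasdermin gene GSDMA (7.68 CPM) completed the 20 protein-coding genes with the widest gaps. KPNA7, an importin alpha gene at 15.8 CPM, and RPE65, the isomerase of the visual cycle at 16.4 CPM, also passed and are named after their values were seen.

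The other 11 higher genes are not protein-coding by the annotation. The largest gap of all belonged to AP000542.1, an unprocessed pseudogene on chromosome 22 at 50.6 CPM, with 1.56 CPM in OAC_5.1_C next. BNIP3P2 and ZNF72P, pseudogenes of the same chromosome, followed at 29.7 and 11.3 CPM, again with OAC_5.1_C as the closest library. Reads of pseudogenes can come from near-identical copies, so these 3 values are uncertain. SLC7A11-AS1 (49.9 CPM) overlaps a transporter gene on the other strand. The sources used here do not say whether counting used strand, so its reads cannot be told apart from those of SLC7A11, which stood at 254 CPM and ranked 4 of 9.

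**Figure D1:**
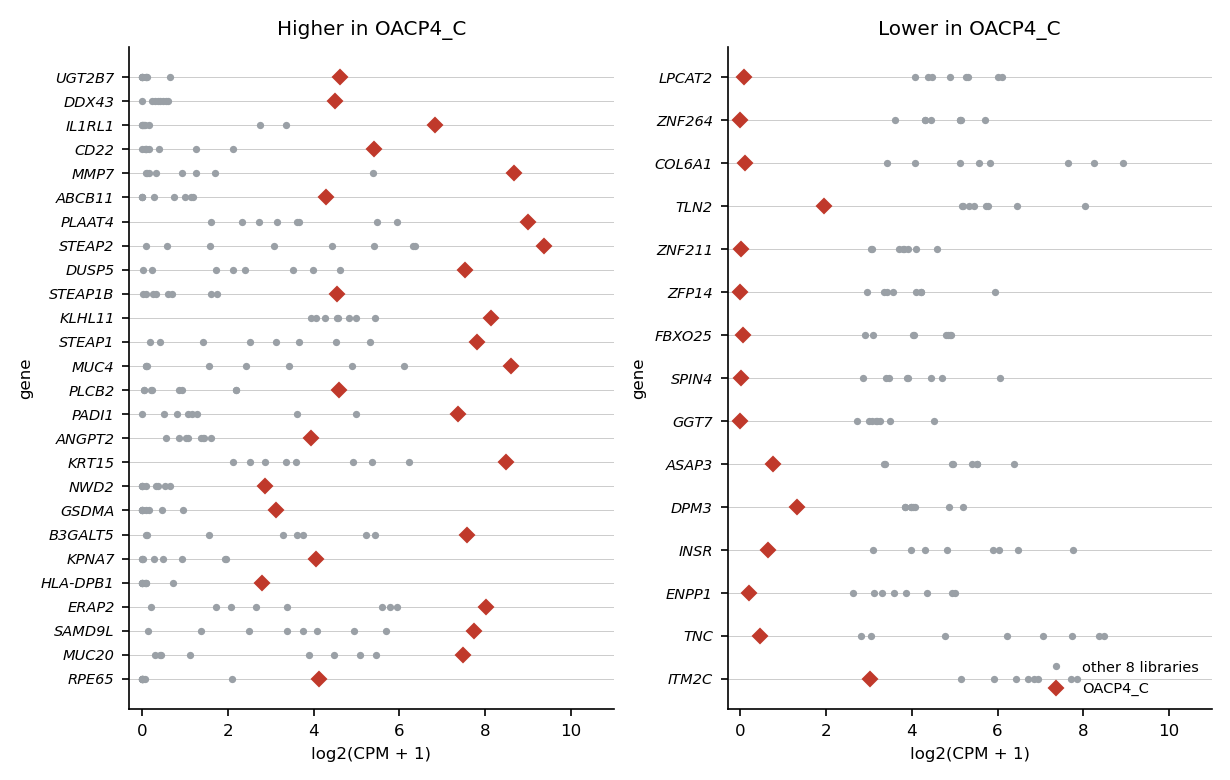
Levels of the protein-coding genes called higher (left, 26 genes) and lower (right, 15 genes) in OACP4_C, on the log2(CPM + 1) axis; red diamonds are OACP4_C and grey points the other 8 libraries, 1 library each. Diamonds lie at least 2 units to the right of every grey point on the left and at least 2 units to the left on the right.

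Of the 16 genes called lower, 8 were all but silent, with at most 4 counts. LPCAT2, a lysophosphatidylcholine acyltransferase on chromosome 16, had 3 counts in OACP4_C. The other 8 libraries held 15.9 to 67.8 CPM of it, with a median of 32.9 CPM, and the ratio of the lowest of them to OACP4_C was 306 (104 to 1492). LPCAT1, a related acyltransferase gene, was at 158 CPM against a median of 78.2 CPM. COL6A1, a chain of collagen VI, had 4 counts, against 9.78 CPM in ESO-51, a median of 50.8 CPM and 483 CPM in OE19.

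INSR, the insulin receptor on chromosome 19, was at 0.569 CPM (33 counts). Its lowest level elsewhere was 7.58 CPM in JH_EsoAd1, the median 43.1 CPM and the highest 216 CPM in OE19. The ratio of JH_EsoAd1 to OACP4_C was 13.3 (9.10 to 20.04), and INSR was the 1 receptor tyrosine kinase of 23 measured that was over 2-fold below the median. TLN2, the integrin-linking protein talin 2, was at 2.86 CPM against 35.1 to 263 CPM. FBXO25, an F-box gene on chromosome 8, had 2 counts and SPIN4, a histone reader gene on the X chromosome, had 1. The lowest other library exceeded them by a ratio of 187 (50.7 to 1558) for FBXO25 and 366 (64.8 to 14524) for SPIN4.

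GGT7, of the gamma-glutamyltransferase family, had no counts in OACP4_C and was at least 109-fold higher in every other library, where it spanned 5.62 to 21.9 CPM. DPM3, a subunit of the enzyme that makes dolichol-phosphate mannose, was at 1.48 CPM against 13.4 to 35.8 CPM. ASAP3, an activator of Arf GTPase, was at 0.690 CPM against 9.12 to 83.05 CPM. Named after their values were seen, ENPP1 (0.155 CPM), the matrix glycoprotein tenascin C (TNC, 0.380 CPM, others up to 354 CPM) and ITM2C (7.12 CPM) made up the 15 protein-coding genes with the zinc finger genes below. PAX8-AS1 was the 1 lower gene that is not protein-coding, and it overlaps PAX8, so reads of both cannot be told apart.

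KRAB zinc finger genes, whose products silence transposable elements and other targets and which sit in clusters on chromosome 19, gave 3 of the 16. ZNF264 and ZFP14 had no counts in OACP4_C and ZNF211 had 1. ZNF264 spanned 11.2 to 51.1 CPM elsewhere (median 27.3 CPM), ZFP14 6.76 to 60.4 CPM (median 13.4 CPM) and ZNF211 7.25 to 23.01 CPM (median 12.98 CPM). Each other library was at least 216-fold higher for ZNF264 and at least 131-fold higher for ZFP14, and the ratio for ZNF211 was 420.1 (74.9 to 16645).

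Across all 144 zinc finger genes of chromosome 19 in the ordered set described below, 29 (20.1%) were at least 4-fold below the median of the others, beside 2.75% of all ordered genes. None was at least 4-fold above. The same share was 4.23% for zinc finger genes on other chromosomes (9 of 213) and 4.08% for the other genes of chromosome 19 (23 of 564). In 15 of the 144 OACP4_C held 0 or 1 count, and OE33 in 18, those of OACP4_C including ZNF304, ZNF134, ZNF548, ZNF585A, ZNF420 and ZNF773. ZNF585A and its near-identical neighbour ZNF585B may share reads, though both were at 0 or 1 count.

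Low zinc finger genes occurred in other libraries too. OE33 had 24 on chromosome 19 at least 4-fold below the median, SK-GT-4 20, OAC_5.1_C 15 and ESO-51 13, while FLO-1 had 0. With 0 or 1 count there were 7 in ESO-51, 3 in SK-GT-4 and 2 in OAC_5.1_C. The median difference over the 144 genes was -0.61 in both OACP4_C and OE33, and 39 genes were lowest of 9 in OE33 against 35 in OACP4_C. Over all 19719 genes the share lowest of 9 was 9.77% in OE33 and 6.68% in OACP4_C. The other 564 genes of chromosome 19 had a median of -0.36 in OACP4_C and 0.17 in OE33, so they were lowered in OACP4_C as well but not in OE33. Some low zinc finger genes were shared: ZNF304 and ZNF548 were also low in SK-GT-4 (0 and 0.161 CPM), ZNF567 in OE33 (0.0377 CPM) and ZNF420 in JH_EsoAd1 (0.0991 CPM). ZNF112, named after its values were seen, had no counts in OACP4_C and 3.92 to 12.5 CPM in the other 8.

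**Figure D2:**
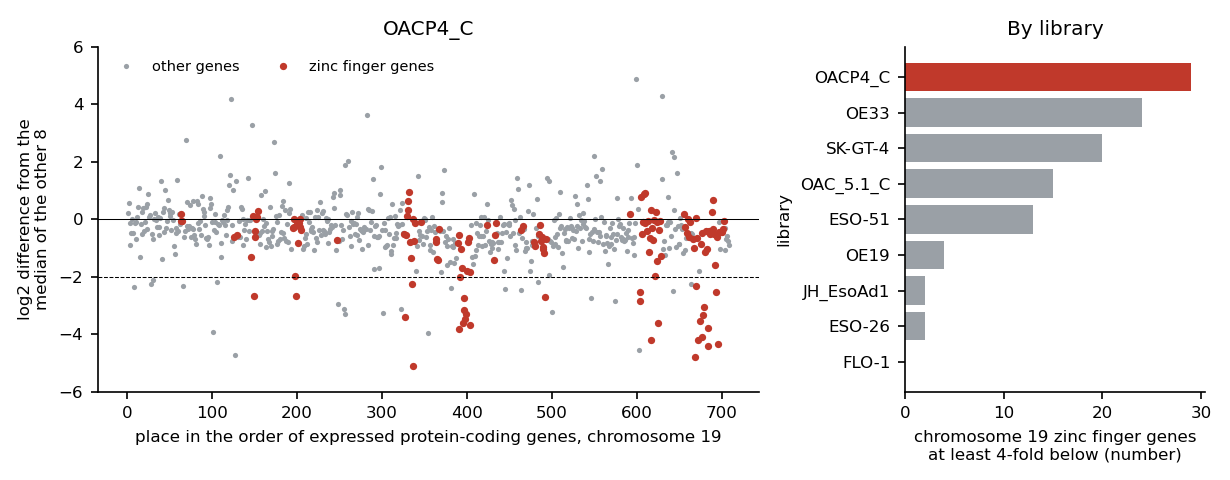
Left, log2 difference of OACP4_C from the median of the other 8 libraries for expressed protein-coding genes of chromosome 19 in chromosomal order, with zinc finger genes in red and the dashed line at -2. Right, number of chromosome 19 zinc finger genes at least 4-fold below the median of the others in each library; the bar of OACP4_C ends at 29 and that of OE33 at 24.

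Neighbouring genes were often high together. In windows of 11 consecutive protein-coding genes, taken over 10575 genes at 5 CPM or more in at least 4 libraries, OACP4_C had 36 runs of windows with a median difference of 1 or more. They covered 574 genes (5.43%), within the 2.27% to 8.06% of the other libraries. The longest run, 81 genes of chromosome 7 from LAMTOR4 to POT1, was longer than the longest raised run of any other library (31 to 60 genes). Of its members 57 were over 2-fold above the median and 37 were highest of the 9 libraries. Runs were picked by these same differences, so a high share of such members follows from the rule. Over all ordered genes 12.4% were over 2-fold above. Among the 19719 genes at 1 CPM or more in at least 1 library, OACP4_C was highest of 9 in 9.09%.

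The second run, 47 genes from UPK3B to SLC25A13, lies on the same arm, and shorter runs lie between them. Read as 1 block from GSAP to WASL, a span chosen after the values were seen, 156 genes had a median difference of 1.23, with 102 over 2-fold above and 64 highest of 9. FLO-1 came next over the same genes with a median of 0.69, and OAC_5.1_C was lowest at -0.87. In the shorter runs FLO-1 exceeded OACP4_C: 1.66 against 0.998 from PPP1R9A to CPSF4 and 1.49 against 0.988 from ZNF394 to ZCWPW1. FLO-1 was also ahead from ZNF3 to AGFG2 (1.40 against 1.16) and from TAF6 to MOSPD3 (1.15 against 1.01). OACP4_C was ahead from UPK3B to SLC25A13 (1.26 against 1.02 in FLO-1). From LAMTOR4 to POT1 it had 1.26, against at most 0.327 in the others. Beyond the block the difference ended: the 117 genes from POT1 to WDR60 had a median of -0.27 in OACP4_C and 8 were over 2-fold above.

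Within this stretch of chromosome 7 STEAP2, described above, lay furthest from the median (a difference of 5.62), followed by KIAA1324L at 5.30 and STEAP1 at 5.01. SAMD9 and SAMD9L, interferon-induced antiviral restriction factors that sit side by side, were at 762 and 215 CPM. For SAMD9L the other libraries spanned 0.0965 to 50.2 CPM, so it was among the genes called higher, and for SAMD9 they reached 423 CPM in JH_EsoAd1. SEMA3A, a secreted guidance cue, was at 764 CPM (next 315 CPM in JH_EsoAd1) and KIAA1324L at 58.9 CPM (next 39.4 CPM in ESO-51, median 0.525 CPM). Further along, DOCK4, an activator of Rac and Rap GTPases, was at 69.9 CPM with 48.3 CPM next, and IMMP2L, a mitochondrial inner membrane peptidase, at 86.5 CPM with 34.3 CPM next. TRIM56, an antiviral ubiquitin ligase, was at 166 CPM and highest of 9.

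MET, the receptor of hepatocyte growth factor, was at 6323 CPM in OACP4_C and at 12506 CPM in the library labelled OE19. The other 7 libraries spanned 57.7 CPM in OE33 to 772 CPM in JH_EsoAd1, so both stood clear of the rest. Of 9 measured genes around MET, 6 were over 2-fold above the median in OACP4_C and the list's median difference was 2.17, beside 2.45 in OE19. Without the filter on low members it was 1.23. CAPZA2, an actin capping subunit, was at 567 CPM against 2684 CPM in OE19 and at most 174 CPM elsewhere. TES, a focal adhesion protein, was at 602 against 2381 CPM, ST7 at 64.02 against 131 CPM and CAV2, a caveolar coat protein, at 396 against 449 CPM. For each of these 5 genes the level in OACP4_C was below that of OE19, and for CAV2 JH_EsoAd1 was higher still (478 CPM). CAV1 (249.9 CPM) was highest in JH_EsoAd1 (1849.6 CPM), MDFIC (16.2 CPM) was highest in ESO-26, and TFEC and CFTR were below 1 CPM in OACP4_C.

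Chromosome 17 held 3 raised runs. The first of them, the 21 genes from FAM222B to TEFM, had a median difference of 1.0 with 11 over 2-fold above and 12 highest of 9. The longest, 31 genes from ZNF830 to RAPGEFL1, holds ERBB2. Its core of 16 genes from RPL23 to MED24 was chosen after the values were seen as a stretch in which all are over 2-fold above the median in OACP4_C. The core had a median difference of 2.13, and 9 genes were highest of 9. ESO-51 had 1.70 over the same genes and SK-GT-4 -0.60. The next 14 genes, from THRA to TMEM99, had a median of -0.60 in OACP4_C and none was over 2-fold above. The run from SMARCE1 to NKIRAS2, which begins within that stretch, had 19 genes with a median of 0.58, of which 9 were over 2-fold above and 3 below. Within it 12 genes from KRT13 to KLHL11, also a span chosen after the values were seen, had a median of 2.91, with 9 over 2-fold above, 8 of them over 4-fold, and 2 over 2-fold below.

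ERBB2 itself was at 1387 CPM in OACP4_C, rank 3 of 9. SK-GT-4 held 18325 CPM of it, and ESO-51 3515 CPM. The remaining libraries held 10.4 to 648 CPM. GRB7, the adaptor gene beside it, was at 361 CPM and MIEN1 at 191 CPM, both behind the same pair of libraries, and PGAP3 at 65.98 CPM ranked 4 of 9. Other genes of the core were highest in OACP4_C, among them the proteasome subunit PSMD3 (981 CPM, next 344 CPM), the Mediator subunits MED24 (338, next 147 CPM) and MED1 (262, next 118 CPM), the transcriptional kinase CDK12 (406, next 153 CPM) and the sphingolipid regulator ORMDL3 (197, next 95.7 CPM). STARD3, a cholesterol transfer protein, was at 239.7 CPM beside 295 CPM in ESO-51. RPL23, a ribosomal protein gene at the edge of the core, was at 2900.3 CPM, behind ESO-51 (3790.1 CPM).

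GSDMB was at 76.99 CPM, just above ESO-51 (63.2 CPM), and GSDMA and GSDMB are related in sequence, so their reads may be shared. PPP1R1B, within the same list, was low at 0.552 CPM, against 456 CPM in OE19 and 341 CPM in ESO-51. IKZF3 (4.14 CPM), TCAP (2.92 CPM), PNMT (0.587 CPM), ZPBP2 and NEUROD2 stayed below 5 CPM in OACP4_C. Of the 17 measured members of that list 14 were over 2-fold above and 1 below, with a median difference of 2.32, and 2.42 in ESO-51. In the span from KRT13 to KLHL11, KRT19, KRT15 and KLHL11 stood highest of 9, and EIF1, a translation initiation factor, was at 2968 CPM, with 1857 CPM in SK-GT-4 and at most 379 CPM in the others.

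**Figure D3:**
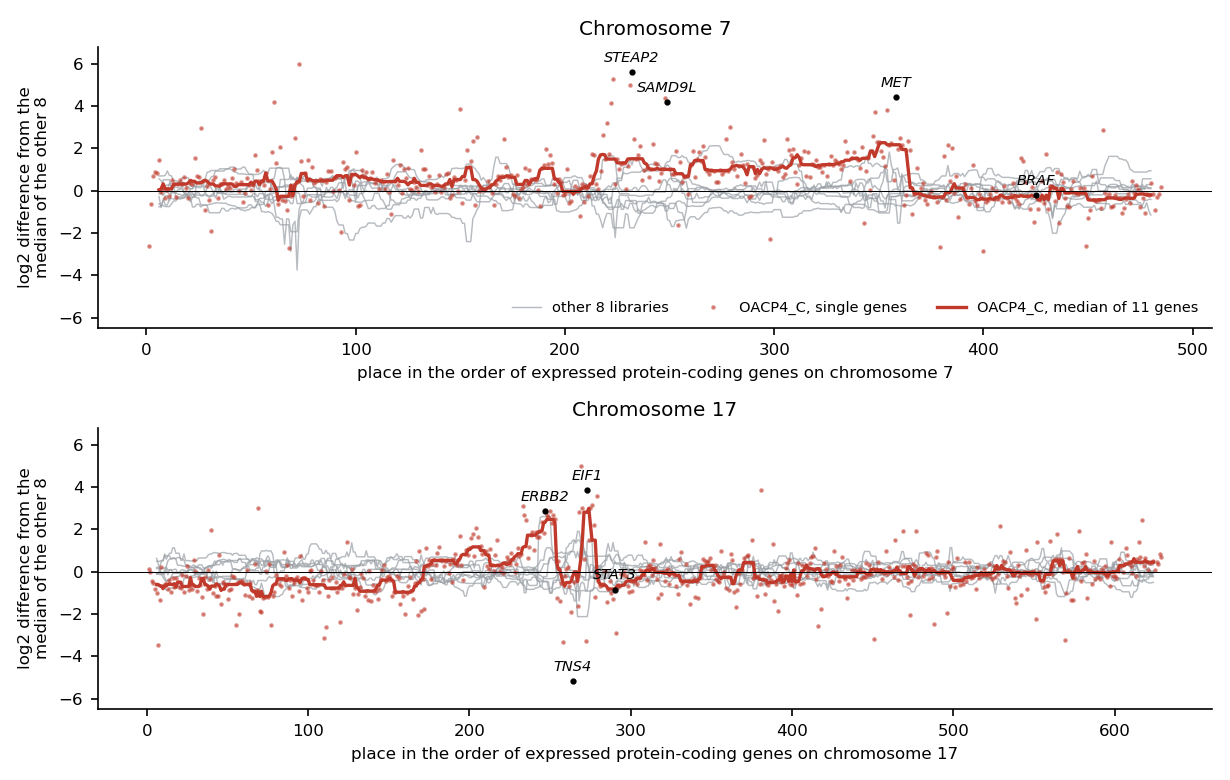
Log2 difference of OACP4_C from the median of the other 8 libraries along chromosomes 7 and 17, with single genes as points (named genes in black), the median of 11 genes as the red line and the same median for each other library in grey; the horizontal axis is the place in gene order. The red line lies around 1 or above over most of the block of 156 genes on chromosome 7, is highest around MET, and falls to about 0 after the block. On chromosome 17 it peaks at ERBB2 and again at EIF1, beside a lower raised run before ERBB2.

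Lowered runs were fewer, 16 with 195 genes (1.84%). In the other libraries they covered 0.747% to 12% of the ordered genes, and in most of them more than in OACP4_C. The longest, 30 genes of chromosome 19 from SDHAF1 to ECH1, and the second, 22 genes from ZNF444 to ZNF552, hold the zinc finger genes given above, led by ZFP14, ZNF607 and ZNF567 in the first and ZNF264, ZNF134 and ZNF304 in the second. Over 2-fold below were 18 of the 30, a share that the rule for runs makes high. Over all ordered genes it was 8.51%. The third lay on chromosome 13 from TBC1D4 to IPO5, where 11 of 21 genes were over 2-fold below. NDFIP2, an adaptor of ubiquitin ligases, was at 23.5 CPM against a median of 119.9 CPM and COMMD6 at 10.2 against 45.2 CPM. SCEL, encoding the cornified-envelope precursor sciellin, went the other way within it, at 144 CPM against a median of 11.01 CPM.

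Gene lists were read as the median difference over members at 1 CPM or more in at least 1 library and as the number of members over 2-fold from the median of the others. Over all 19719 genes the median difference was 0.00, with 10.6% over 2-fold above and 6.09% over 2-fold below. OACP4_C was highest of 9 in 9.09% of them and lowest of 9 in 6.68%. Of 43 lists, 6 had a median of 1 or more in OACP4_C, and none had a median of -1 or below. Beyond the members furthest from the median, a few are named below for their role, and all of these were chosen after their values were seen: OASL, GBP2, CXCL10, CXCL11, TAPBP, PSMB10, CSF1, CDH1, EPCAM, VIL1, COL1A2, COL3A1, DCN, LUM, KDR and PLK1. The same holds above for IL33, CD79A, PTPRC, HLA-DRA, SLC7A11 and LPCAT1.

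Receptor tyrosine kinases had 8 of 23 measured members over 2-fold above and 1 below. Beside MET and ERBB2, EGFR was highest of 9 at 857 CPM, close to OAC_5.1_C (762 CPM) and above the 6.11 to 307 CPM of the rest. MERTK, a receptor for apoptotic cells, was at 50.1 CPM (median 3.89 CPM), with 64.5 CPM in ESO-51. FGFR2 was at 39.4 CPM, behind ESO-26 (459.8 CPM) and OAC_5.1_C (149 CPM). Of 11 genes for ligands of the EGF family, 4 were over 2-fold above the median and none below. They were EREG at 593 CPM, level with OE19 (575 CPM), AREG at 132 CPM, level with OAC_5.1_C (117 CPM), TGFA at 202 CPM, second to OAC_5.1_C (243 CPM), and BTC at 11.1 CPM, second to ESO-51 (20.96 CPM). OACP4_C thus carried high RNA of EGFR together with its ligands EREG, AREG and TGFA, as did OAC_5.1_C, where EREG was at 287 CPM.

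Genes that ERK signalling induces had 11 of 19 members over 2-fold above and 1 below, with a median difference of 1.06 (others -2.73 in ESO-26 to 1.42 in OE19). After DUSP5 the furthest were FOSL1, a subunit of the transcription factor AP-1, at 132 CPM (next 41.3 CPM), PHLDA1 at 609 CPM (next 572 CPM in OE19), and the ERK phosphatase DUSP6 at 178 CPM (next 161 CPM in OE19). IER3, an early response gene, was highest of 9 at 199 CPM, and the 1 member below was EPHA4 (0.638 CPM, median 8.44 CPM). Without the libraries labelled OE19 and SK-GT-4 the median was 1.64.

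The promoter of MMP7 is shown because its levels stand out most among the matrix proteases and because it holds a binding motif of AP-1. The 220 bases before its start, from RefSeq on GRCh38.p14, lie at chr11:102530748-102530967 on the minus strand, and capitals mark the letters TGANTCA, which begin 67 bases before the start.
MMP7: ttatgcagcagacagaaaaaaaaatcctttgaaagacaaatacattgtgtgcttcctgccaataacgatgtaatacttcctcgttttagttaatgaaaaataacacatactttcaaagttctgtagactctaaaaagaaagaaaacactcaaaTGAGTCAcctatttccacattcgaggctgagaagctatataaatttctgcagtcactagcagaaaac
That motif, searched on both strands, occurs in 6.57% of 35116 RefSeq promoter windows of 250 bases. A match describes the letters alone.

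MHC class I presentation was the list furthest up beside the chromosomal ones. Of 15 members 13 were over 2-fold above the median and none below, 10 were highest of 9, and the median difference was 1.90, against -2.47 in SK-GT-4 to 1.08 in OE33. ERAP2, an aminopeptidase that trims peptides in the endoplasmic reticulum, was at 259 CPM (others 0.161 to 60.4 CPM, median 7.34 CPM) and was called higher. NLRC5, the transactivator of class I genes, was at 108 CPM, with 45.3 CPM in OAC_5.1_C next. Of the peptide supply genes, TAP2 was at 80.2 CPM (next 42.99 CPM) and the immunoproteasome subunit PSMB8 at 170.1 CPM (next 84.3 CPM).

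Of the class I heavy chains, HLA-F was highest of 9 at 60.3 CPM and HLA-B second to OAC_5.1_C (815 and 1371 CPM). Reads of HLA genes can be shared among them and depend on how each line's alleles match the reference, so their levels are uncertain. TAPBP and PSMB10 were the 2 members within 2-fold of the median. ERAP2 was the single member past the gap of 2: NLRC5 exceeded the next library by 1.23 log2 units and TAP2 by 0.88.

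Interferon-stimulated genes stood high in OACP4_C, ESO-51 and OE33. Of 28 members 21 were over 2-fold above the median and none below, with a median difference of 1.61. ESO-51 had 1.56 and OE33 1.34 with 16 of 28 above, both close to it, and ESO-26 was lowest at -3.41. IFI27 was at 179 CPM, with ESO-51 above it at 665 CPM, OE19 at 159.7 CPM, FLO-1 at 136 CPM and no more than 2.07 CPM in the other 5. IFI44L was at 62.98 CPM (ESO-51 103 CPM, lowest 0), the antiviral GTPase gene MX1 at 191 CPM (ESO-51 444 CPM, OE33 221 CPM) and the 2'-5'-oligoadenylate synthetase gene OAS2 at 123 CPM (ESO-51 98.4 CPM). No member was called higher by the gap rule. The chemokine genes CXCL10 and CXCL11, which interferon gamma induces strongly in many cells, had no counts in OACP4_C. OASL (23.6 CPM) and GBP2 (6.43 CPM) were not above the median of the others (25.02 and 8.45 CPM).

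Promoters of 3 interferon-stimulated genes and of CD274 (PD-L1), described further below, are printed to show the interferon-stimulated response element. It was searched as GAAANNGAAA on both strands and is in capitals. The sequences are RefSeq's on GRCh38.p14, 220 bases before the start, all on the plus strand, at chr14:94110516-94110735, chr1:78620228-78620447, chr11:313820-314039 and chr9:5450322-5450541. For IFI27 the table has 2 entries and the first is shown.
IFI27: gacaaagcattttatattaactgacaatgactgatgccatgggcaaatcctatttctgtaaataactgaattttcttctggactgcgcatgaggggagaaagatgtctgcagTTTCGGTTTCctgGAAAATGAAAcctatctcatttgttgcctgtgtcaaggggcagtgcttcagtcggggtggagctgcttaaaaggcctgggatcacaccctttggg
IFI44L: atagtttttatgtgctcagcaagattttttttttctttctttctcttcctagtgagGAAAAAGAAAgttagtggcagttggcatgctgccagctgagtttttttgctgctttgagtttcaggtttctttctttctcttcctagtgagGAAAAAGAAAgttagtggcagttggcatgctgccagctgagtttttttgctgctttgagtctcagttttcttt
IFITM1: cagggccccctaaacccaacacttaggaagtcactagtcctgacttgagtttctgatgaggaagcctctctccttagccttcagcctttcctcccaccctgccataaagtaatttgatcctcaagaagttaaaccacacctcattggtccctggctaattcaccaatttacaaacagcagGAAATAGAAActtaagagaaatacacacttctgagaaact
CD274: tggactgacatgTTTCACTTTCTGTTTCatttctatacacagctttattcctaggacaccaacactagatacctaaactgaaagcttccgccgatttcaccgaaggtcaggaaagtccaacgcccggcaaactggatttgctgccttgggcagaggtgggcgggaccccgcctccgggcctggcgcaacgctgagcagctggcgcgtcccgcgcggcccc
In CD274 the 2 matches overlap, beginning 208 and 202 bases before the start. The motif occurs in 3.02% of all 35116 windows, in 14 of 20 matched members of the interferon list and in 7 of 12 matched members of the class I list. A list member was counted if any of its windows held the motif, so its share and the share per window are in unlike units. IFITM1, a membrane antiviral gene, was at 34.04 CPM in OACP4_C, behind OE19 (62.3 CPM) and ESO-51 (43.6 CPM).

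**Figure D4:**
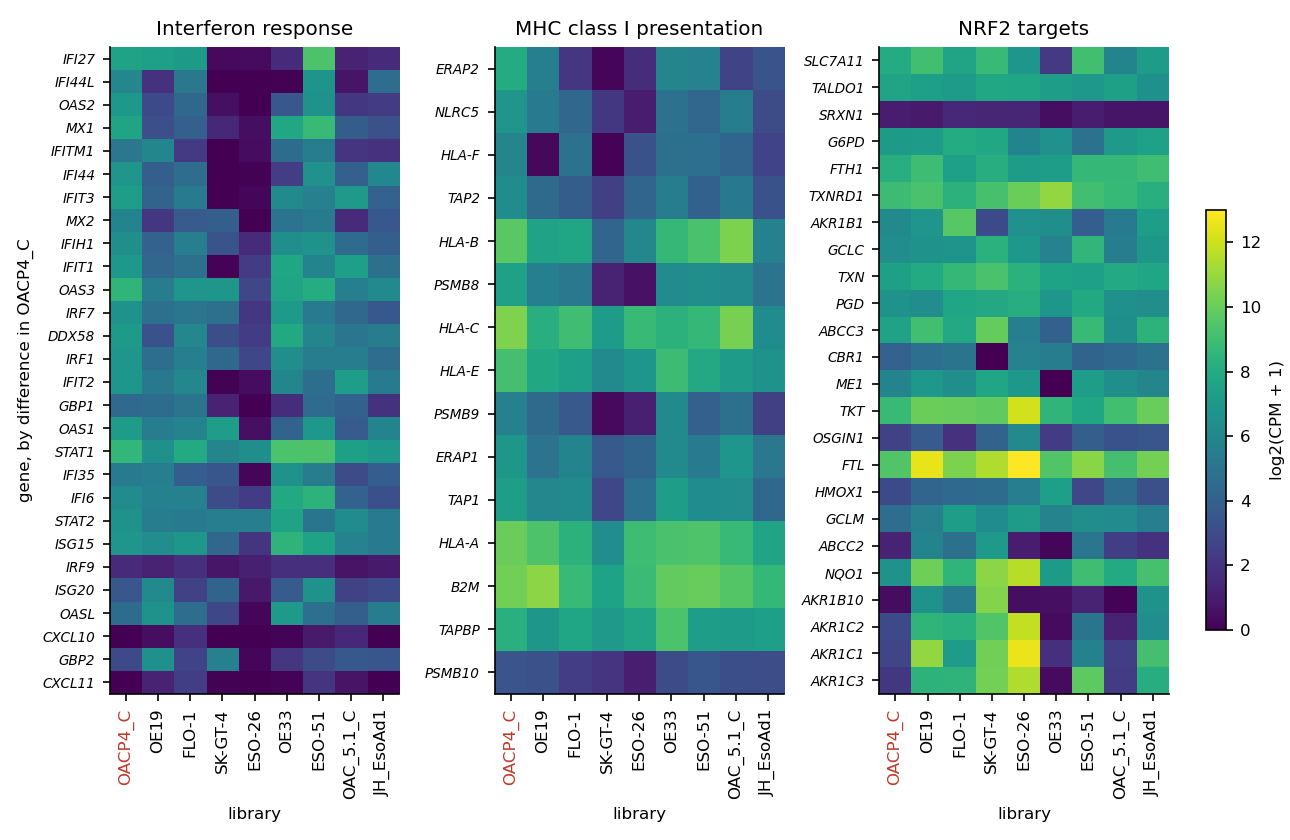
Levels of the members of 3 gene lists (rows, ordered by their difference in OACP4_C) in the 9 libraries (columns, OACP4_C first), as log2(CPM + 1) in colour. Interferon and class I genes are high in OACP4_C and low in SK-GT-4 or ESO-26, while the AKR1C genes and NQO1 at the foot of the NRF2 panel are low in OACP4_C.

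Immune checkpoint ligands had 6 of 15 measured members over 2-fold above and none below. The median difference was 0.79, beside 0.83 in OAC_5.1_C with 7 above and 1 below. CD274 stood at 45.4 CPM, close to OAC_5.1_C (59.1 CPM), with a median of 0.391 CPM in the other 8. NT5E, the ecto-enzyme CD73 that makes adenosine, was at 400.3 CPM and PDCD1LG2 (PD-L2) at 4.57 CPM, both second to OAC_5.1_C. IDO1, a tryptophan-degrading enzyme that interferon gamma induces, was low in all and highest here at 2.16 CPM.

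Cytokines of the NF-kB and interleukin-1 group had 11 of 23 measured members over 2-fold above and 1 below. LIF, a cytokine of the interleukin-6 family, was at 170.4 CPM (next 83.5 CPM in OE19), the NF-kB inhibitor TNFAIP3 at 76.9 CPM (next 46.7 CPM), and the neutrophil chemokine CXCL2 at 18.04 CPM (next 8.39 CPM). CXCL8 was second to OAC_5.1_C, at 24.4 and 62.1 CPM. CSF1 was the member below, at 3.78 CPM against a median of 9.85 CPM. The list's median was 1.0, FLO-1 reached 1.06, and without ESO-26 and OE33 the value was 0.50.

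Epithelial genes stood high, though not alone among the libraries. Of 35 genes of epithelial junctions, keratins and their regulators 18 were over 2-fold above the median, none below, and the median difference was 1.19. OAC_5.1_C had 1.21 with 20 above and none below, and SK-GT-4 1.02 with 19 above and 4 below. The size of the OACP4_C value depends on ESO-26 and OE33, in which many of these genes were nearly absent: without both it was 0.38, and without ESO-26, OE33 or JH_EsoAd1 alone 0.74, 0.69 or 0.74. KRT19 was at 9611 CPM, the others spanning 15.99 CPM in OE33 to 4532 CPM in JH_EsoAd1 with a median of 1222 CPM. KRT7, a keratin of glandular ducts, was at 1649 CPM beside 1449 CPM in OAC_5.1_C and 1144 CPM in FLO-1. JUP, plakoglobin of desmosomes and adherens junctions, was at 4168 CPM, second to SK-GT-4, and lies in the chromosome 17 span from KRT13 to KLHL11. E-cadherin (CDH1, 419 CPM) and EPCAM (447 CPM) were present and not highest.

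Genes of intestinal and gastric differentiation lay near the median. Of 18 measured intestinal genes 2 were over 2-fold above and 1 below, with a median difference of -0.06 (mean 0.05), and of 19 gastric genes 2 were above and 2 below (median -0.08, mean 0.10). DPP4, a brush-border peptidase, was at 45.6 CPM, behind OE19 and ESO-51, whereas VIL1 was at 0.673 CPM against 341 CPM in SK-GT-4. HNF4A, a master factor of columnar and intestinal genes, was at 0.121 CPM, its highest level being 167 CPM in ESO-51. Of 19 measured columnar transcription factors 4 were over 2-fold above the median and 2 below, with a median difference of -0.04. ANXA10, a gastric annexin, was at 42.7 CPM, behind SK-GT-4 (334 CPM) and OE19 (149 CPM), while AGR2, a secretory cell chaperone, was 51.5 CPM against a median of 339.6 CPM. Among 12 measured mucins 3 were over 2-fold above and 2 below: MUC4, MUC20 and MUC16 (28.7 CPM, highest 458 CPM in OAC_5.1_C) were high, and the secreted mucin MUC5B (1.10 CPM) and the membrane mucin MUC13 (0.466 CPM) were low. MUC5B peaked at 1914 CPM in SK-GT-4, MUC13 at 336 CPM in OE19.

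Squamous and basal genes were mixed, with 5 of 22 above, 3 below, a median of -0.13 and a mean of 0.31. Beside KRT15, the desmosomal cadherin DSC3 was highest of 9 at 56.98 CPM (next 21.8 CPM). KRT17 (0.414 CPM) and TRIM29 (2.21 CPM) were low against 328 CPM in ESO-26 and 173 CPM in FLO-1. KRT17 has near-identical pseudogenes, so its level is uncertain.

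Mesenchymal genes were divided as well, with 3 of 24 above and 6 below. Fibronectin (FN1) was at 945 CPM, behind ESO-26 (3591 CPM) and OAC_5.1_C (2404 CPM), and TGFBI at 245 CPM, second to JH_EsoAd1. Vimentin (VIM), by contrast, was at 0.190 CPM against 1679 CPM in OE19, and S100A4 at 5.68 CPM against 1439.9 CPM. Neither was lowest in OACP4_C. S100A4 was at 2.49 CPM in ESO-51. On the deposited values VIM was at 0.00189 FPKM in SK-GT-4 and 0.00547 FPKM in ESO-51, against 0.0125 FPKM in OACP4_C. Of 9 measured fibroblast markers none was over 2-fold above the median, COL1A2 and COL3A1 were at 0.0345 and 0.0863 CPM and DCN and LUM had no counts in OACP4_C. Of 7 endothelial markers ESAM alone was above (16.3 CPM), and KDR had no counts. The summed level was 3.26 CPM in OACP4_C and 1.96 to 1670.3 CPM in the others for the fibroblast markers and 17.04 CPM in OACP4_C and 0.923 to 58.5 CPM in the others for the endothelial ones.

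**Figure D5:**
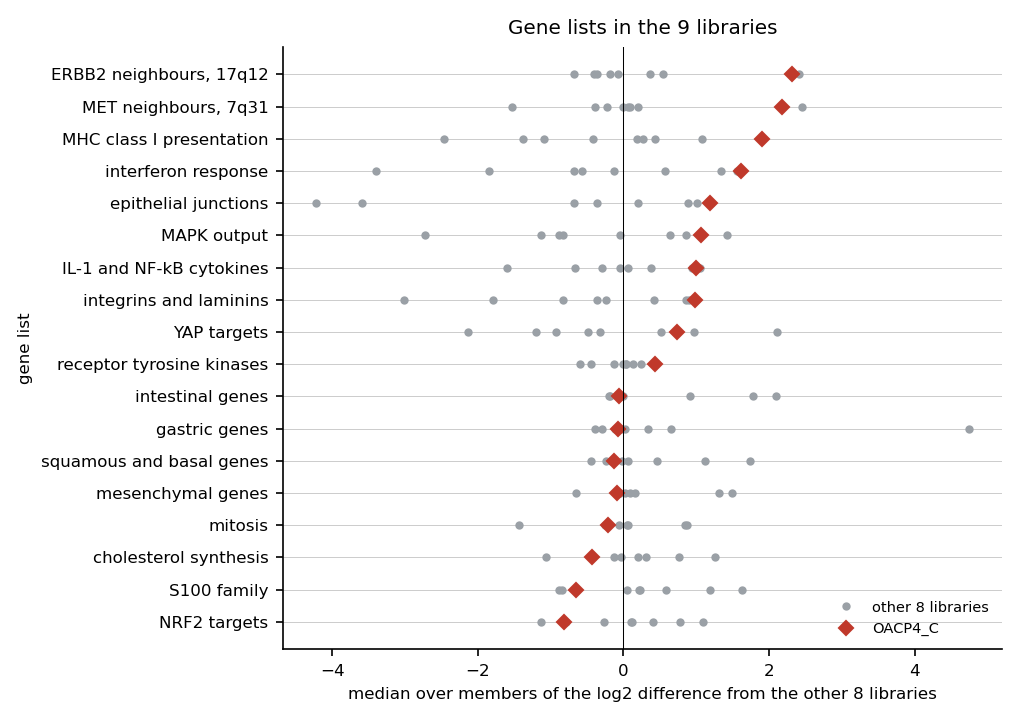
Median log2 difference from the other 8 libraries over the measured members of 18 gene lists (rows), with OACP4_C as red diamonds and each other library, read the same way, as grey points. OACP4_C lies furthest right for class I genes, receptor tyrosine kinases and, narrowly ahead of JH_EsoAd1, integrins and laminins. It is also furthest right, only just ahead of ESO-51, for interferon genes. It is second for both chromosomal lists, among others. Several lists lie left of 0 in OACP4_C, S100 genes and NRF2 targets furthest.

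Genes of adhesion and of matrix proteolysis were in part high. Integrins and laminins had 9 of 19 measured members over 2-fold above and 1 below. JH_EsoAd1 was close, with a median of 0.89, 9 above and none below, as was OAC_5.1_C with 0.85, 7 above and none below. The list's median of 0.98 in OACP4_C was 0.63 without ESO-26 or ESO-51 alone and 0.55 without ESO-26 and OE33. ITGA2, the collagen-binding integrin chain, was highest of 9 at 1153 CPM, just above OAC_5.1_C (957 CPM). The urokinase gene PLAU was highest of 9 at 998 CPM, with OE33 next (543 CPM) and a lowest value of 0.257 CPM. Its inhibitor SERPINB2 was at 21.3 CPM, with 84.2 CPM in OAC_5.1_C and at most 0.160 CPM in the remaining 7. Of the metalloproteinases, MMP1 was at 97.6 CPM, second to OE19 (2521 CPM), and MMP17 was lowest of 9 with 2 counts.

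Targets of the transcriptional coactivator YAP had 10 of 22 over 2-fold above and 2 below. ANKRD1 was at 66.3 CPM and F3, tissue factor, at 1026 CPM, both second to OAC_5.1_C (323 and 1538 CPM). IGFBP3 was at 659 CPM, level with OE19 (649.9 CPM) and below OAC_5.1_C (2608 CPM). The median difference was 0.74, beside 2.10 in OAC_5.1_C, and 0.48 without OE19 and SK-GT-4.

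NRF2 targets, genes of glutathione and xenobiotic defence, were the list furthest down. Of 24 members none was over 2-fold above the median and 11 were below, with a median difference of -0.81 (mean -1.42, and a median of -0.39 on the deposited FPKM values). OAC_5.1_C had a like value of -0.79 with 10 below and none above, OE33 was lower still at -1.13, and SK-GT-4 was highest at 1.09. NQO1, a quinone reductase, was lowest of 9 at 102 CPM, against 134 CPM in OE33, a median of 556 CPM and 3158 CPM in ESO-26. GCLM, the regulatory subunit of glutathione synthesis, was also lowest of 9, at 23.9 CPM against 45.8 to 157 CPM.

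The aldo-keto reductases showed the widest differences of that list. AKR1C1 was at 5.54 CPM, AKR1C2 at 6.28 CPM and AKR1C3 at 3.31 CPM. Their medians in the others were 363, 194 and 348 CPM, with ESO-26 highest for each (6288, 3551 and 2804 CPM). OE33 and OAC_5.1_C were as low as OACP4_C or lower for AKR1C1 and AKR1C2. The AKR1C genes are close in sequence and may exchange reads. AKR1B10 was at 0.362 CPM against 1521 CPM in SK-GT-4.

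S100 genes had 5 of 12 measured members over 2-fold below and none above (median -0.65), and complement genes 3 of 15 above and 4 below (median -0.51). Without OE19 or FLO-1 alone the S100 median was -0.41, and without OE19 alone the complement median was -0.26, without SK-GT-4 or ESO-26 -0.31 and without JH_EsoAd1 -0.25. Complement C5 was lowest of 9 at 0.845 CPM (next 2.89 CPM), as was clusterin (CLU) at 4.55 CPM (next 11.6 CPM), while C3 was at 78.3 CPM, level with JH_EsoAd1 and below FLO-1 (468 CPM). Cholesterol synthesis genes lay slightly below the median together (24 members, median -0.43, 1 below 2-fold). Cell cycle lists did not stand apart: mitosis genes had a median of -0.22 and DNA replication genes -0.02, with 1 and 1 over 2-fold above and 1 and 2 below of 25 each. The mitotic kinase gene PLK1 was highest of 9 at 93.4 CPM.

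Tumour suppressor genes had 3 of 20 measured members over 2-fold above and none below (median 0.36, and 0.24 without FLO-1 or OE33). The 3 are neighbours on chromosome 9: CDKN2A, which encodes cell cycle inhibitors, at 124 CPM (median 20.7, highest 154 CPM in OE19), CDKN2B, encoding a related inhibitor, at 58.8 CPM (median 10.9, highest 79.2 CPM in OE19), and the methylthioadenosine enzyme gene MTAP at 143 CPM (median 22.5 CPM).

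OAC_5.1_C was the library most like OACP4_C. Over 17129 genes Pearson's r of the log2 values was 0.891 and 7.34% of genes were over 4-fold apart, against r = 0.758 and 16.04% for ESO-26. These are values across genes, which are not replicates. Genes in which OACP4_C and 1 other library stood together at least 2 log2 units above the remaining 7 numbered 16 with OAC_5.1_C, 6 with ESO-51 and 5 with OE19. Over all 36 pairs of the 9 libraries such counts ran from 0 to 26 with a median of 4.5.

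With OAC_5.1_C the widest joint gaps were those of SERPINB2, MMP7, the TEAD cofactor gene VGLL1 (131 and 111 CPM, at most 8.15 CPM elsewhere), ANKRD1, the claudin gene CLDN9 (20.5 and 21.4 CPM) and LINC01322 (10.5 and 8.27 CPM). CD274 was among the 16. The leukocyte integrin chain ITGB2 (50.9 and 30.5 CPM) and the protease inhibitor CST6 (39.1 and 136 CPM) were as well, named after their values were seen. With ESO-51 the 6 were the basement membrane gene FREM2 (44.3 and 25.8 CPM), ACTL8, LARGE2, lipocalin 2 (LCN2, 515 and 637 CPM), OAS2 and LAMP3. With OE19 they were MET, the retinol dehydrogenase gene DHRS9 (581 and 171 CPM), ST7, PHLDA1 and FOXC2.

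Shared low genes numbered 19 over the 8 partners, with 1 to 4 for each. Over all 36 pairs of libraries such counts ran from 0 to 110 with a median of 2. Those with the largest joint gaps were RDX, encoding the membrane linker radixin, with OE33 (0.0863 and 0.0754 CPM, at least 14.05 CPM elsewhere), PARP6 with ESO-51 (0.0690 and 0.333 CPM) and TBC1D9 with OE33 (1.09 and 0 CPM). ETFB, a subunit of the electron transfer flavoprotein, had no counts in OACP4_C or OAC_5.1_C and at least 6.74 CPM in the other 7. RDX, TBC1D9 and ETFB are named after their values were seen.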

How the data were processed

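Total RNA of 9 cell lines was sequenced, 1 column of counts for each. FastQC 0.11.7, STAR 2.6.1d, R 3.6.1 and the build GRCh37 are named in the submitters' processing notes. The counter, its strand setting and its annotation are not given in the sources used here, nor is how the 3 technical replicates that the design text mentions enter a column. The authors deposited 1 table of raw counts by gene name, which was used for all results, and per-library files of counts and of FPKM values by identifier. Per the labels, the column names match the lines, except that 1 column is written with OACM5.1_C for OAC_5.1_C. Blank gene names were left out (0.00808% of the counts of OACP4_C).

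From the counts, trimmed mean of M values factors were computed with edgeR 4.0.16 on genes at 1 CPM or more in at least 2 libraries (0.9995 for OACP4_C, 0.831 to 1.11 for the others). Differences are of log2(CPM + 1). Gene types and gene order came from GENCODE 29, whose build differs, so none of its coordinates are given, and promoter sequences from RefSeq. With 1 library for each line no test was run, and DESeq2 1.42.0 served for other size factors only. Counting intervals are exact 95% Poisson intervals. The call rule was also run on simulated counts with some genes changed by a known fold. There the other 8 libraries shared the same mean for each gene, with counting error only. False calls from differences between lines were thus not tested.

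Genes named are the 20 higher and 12 lower protein-coding genes with the widest gaps, up to 6 members of each list furthest from the median and its called members, the genes around ERBB2 and MET, up to 6 genes in each of the 3 longest runs in each direction, and the 6 widest joint gaps for each of 3 partners. The lines, lists and rules were chosen with earlier results of these data known. Alternatives were other scalings, pseudocounts of 0.25 and 5, no minimum level or 20 CPM, the deposited FPKM values, 21-gene windows and leaving out libraries.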

Additional observations from a re-analysis of the deposited data

Results flagged for a closer look

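The deposited file of OACP4_C holds reads that the gene table used for the results lacks. The identifier ENSG00000266658, to which the table pairs no gene, took 17.04% of all counts in the file of OACP4_C, and 12.4% to 48.3% in the files of the other 8 libraries. It is listed because it is a signal outside the measurement used. Identifiers absent from the table held 29.4% of the counts of OACP4_C in all, against 25.8% to 77.3% in the others. Of 50453 identifiers paired with the table by name, 49188 (97.5%) had equal counts in all 9 libraries.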

How the results depend on the processing

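With 1 library for each line, no result has a replicate check, and culture, extraction and line cannot be told apart. Higher genes, 37 in all, numbered 18 with a pseudocount of 5, 23 with a minimum of 20 CPM, 24 on the deposited FPKM values, 63 without OE19 and SK-GT-4 together (an alternative chosen after seeing the data) and 40 to 62 without 1 other library in turn, the 62 without OAC_5.1_C. Lower genes, 16 in all, numbered 2, 3 and 0 under the first 3 of these settings, 26 without ESO-26 and OE33, 29 without OE19 and SK-GT-4, and 18 to 22 without 1 library in turn. Genes at least 4-fold above the median, 583 in all, numbered 313 with a pseudocount of 5, 323 on FPKM values and 517 to 694 without 1 library. Those below, 280 in all, numbered 93 with a pseudocount of 5, 107 with a minimum of 20 CPM, 13 on FPKM values and 267 to 326 without 1 library. Genes in raised runs fell from 574 to 293 with windows of 21 genes, chosen after seeing the data. Of the 53 called genes, 13 kept the call in the 5 settings that ended any: MMP7, IL1RL1, PLAAT4, STEAP1, STEAP2, DUSP5, KLHL11, MUC4, PADI1, KRT15, AP000542.1, BNIP3P2 and AC125257.1. AC125257.1, annotated as sense-overlapping on chromosome 17, had levels close to those of KLHL11 (301 and 280 CPM in OACP4_C, 39.0 and 42.4 CPM in FLO-1). Whether they share reads was not tested, so they may not be separate calls. Leaving out libraries, a smaller pseudocount or no minimum can only add calls. The FPKM values ended 35 calls, the pseudocount of 5 ended 33, the minimum of 20 CPM 27, library size alone 3 and DESeq2 size factors 1. FPKM values are much smaller numbers than CPM and met the same pseudocount of 1 and minimum of 5, so calls ended by construction: DDX43 was at 3.51 FPKM with 0.0738 FPKM next. Of 43 list medians 29 stayed within 0.5 in every setting. DESeq2 size factors moved the median gene by -0.03. No paired analysis was possible because each line has 1 column and no number is shared between lines.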
